A study of Astyanax mexicanus with 36 samples.

Results

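Oocytes of the Pachón and Molino cave populations of the Mexican tetra, Astyanax mexicanus, were compared in the size category labelled 40_100um. The comparison took every library that the labels put in that category for either population, 3 Pachón and 3 Molino libraries, or 6 of the 36 libraries of the series. Each library holds RNA-seq read counts per gene. Both groups are oocytes from right ovaries of cavefish about 520 days old, labelled WT and non-treated. Surface fish of the same age, genotype label and size category gave 3 further libraries, which entered the fit and are given beside the cavefish values. The series has 4 size categories in all, labelled 40um, 40_100um, 100_300um and 300um, each with 3 libraries from each of 3 populations. The labels do not say whether the 3 libraries of a group came from separate fish or from pools of oocytes. What the p-values weigh is thus the spread among libraries, whose source may be technical.

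Pachón and Molino are cave populations of one species, blind and poor in pigment, and each is named after the cave it lives in. A fish oocyte grows inside a follicle of somatic cells, arrested in meiosis, and stores the messenger RNA and protein that the embryo will use before its own genome becomes active. Early in that growth the oocyte builds ribosomes, mitochondria and the Balbiani body, a cluster of organelles and germline RNA, and later it takes up yolk proteins by endocytosis. Both populations live in the dark with scarce food, and cavefish are studied for changes of eyes, pigment, daily rhythm and metabolism.

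Reads assigned to genes numbered 8720879, 5951789 and 6557035 in the Pachón libraries, against 6261378, 7316847 and 8312489 in the Molino libraries. The share of reads in genes was 66.2 ± 1.95% in Pachón and 70.11 ± 1.27% in Molino, and that of multimapping reads 9.41 ± 0.881% and 7.25 ± 0.443% (SD, n = 3 each). Both differences had p = 0.1 in a two-sided exact permutation test, the smallest p that 3 against 3 libraries can give. Drawn to equal depth, 18951 ± 594 genes had a read in Pachón and 16895 ± 345 in Molino (exact permutation p = 0.1). No pair of replicates was alike within counting noise (the smallest chi-square was 5.91 per degree of freedom), and each library was counted once. The part of read share, multimapping or gene detection in the results below was not tested.

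Markers of oocytes were detected in all 6 libraries. Levels are given as CPM, the read count scaled to the size of the library and not to the length of the gene. Some genes that define the oocyte were among the abundant ones, such as zar1, a maternal RNA-binding factor, at 2373, 1799 and 1766 CPM in Pachón, against 1318, 1438 and 1256 CPM in Molino. The Balbiani body gene buc was at 948, 1360.3 and 935 CPM in Pachón, against 1477, 1397 and 1318 CPM in Molino. The germline helicase gene ddx4 was at 836, 851 and 837 CPM in Pachón, against 812, 731 and 633 CPM in Molino. Other oocyte genes were less abundant, with gdf9 at 47.3 to 86.9 CPM and figla at 3.85 to 8.97 CPM over the 6 libraries. Defining markers of other cells, given as reads summed over the 3 libraries of a population and not as CPM, ranged widely. The immune genes c1qc, c1qa, mpx and ptprc had 2, 3, 0 and 10 in Pachón, against 2, 0, 0 and 6 in Molino. The collagen genes col1a1a and col1a2 had 673 and 186 in Pachón, against 307 and 101 in Molino, and the endothelial genes kdrl and cdh5 had 147 and 99 in Pachón, against 63 and 27 in Molino. Of haemoglobin genes, hbba2 had 21 in Pachón and 26 in Molino, and the 7 genes with the symbol hbe1 had 196 in Pachón and 158 in Molino. The follicle-stimulating hormone receptor fshr had 62 reads in Pachón and 5 in Molino, and the granulosa hormone amh had 17 in Pachón and 0 in Molino. Summed over 245 genes of 9 lists of other cell types, markers reached 2344.5 to 2483 CPM in Pachón and 2065 to 2360 CPM in Molino. The log2 difference of those sums was 0.11 (exact permutation p = 0.2). Single lists went different ways within that sum. The macrophage and inflammation list was at 139 to 190 CPM in Pachón and 42.8 to 53.9 CPM in Molino. The granulosa, lymphocyte and plasma protein lists, given below, were also higher in Pachón without overlap. The stroma list was at 254 to 358 CPM in Pachón and 354 to 565 CPM in Molino. Large parts of the sum were steroid synthesis genes, at 583 to 739 CPM in Pachón and 638 to 794 CPM in Molino. Retina genes added 323 to 557 CPM in Pachón and 423 to 515 CPM in Molino. How far the sum reflects other cells was not tested. In bulk libraries, fewer cells of a type and less RNA per cell cannot be told apart.

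Of 14377 genes tested with edgeR's quasi-likelihood test, 5412 (37.6%) differed at an adjusted p under 0.05, 2792 (19.4%) higher and 2620 (18.2%) lower in Pachón. Of those called, 5319 had libraries that did not overlap between the populations. Without overlap, whatever the test, were 3861 genes higher (26.9%) and 3640 lower (25.3%). Called differences had a median size of 1.17 on the log2 scale (quartiles 0.70 and 2.32), and the median log2 fold change of all tested genes was 0.03. Large differences lay more often on the Pachón side: by their fitted folds, 1882 called genes were at least 2-fold higher and 1168 at least 2-fold lower, and 684 were at least 8-fold higher and 241 at least 8-fold lower. Leaving out 1 library in turn gave 4382 to 4982 calls. One fit of all 36 libraries gave 4509 calls, 2841 higher and 1668 lower, so that 63.0% of the calls were higher, against 51.6% in the fit of 9 libraries. With the log2 sum of the other-cell markers as a covariate, an alternative chosen after seeing the data, 3382 genes were called, 1630 of them higher and 1752 lower.

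**Figure D1:**
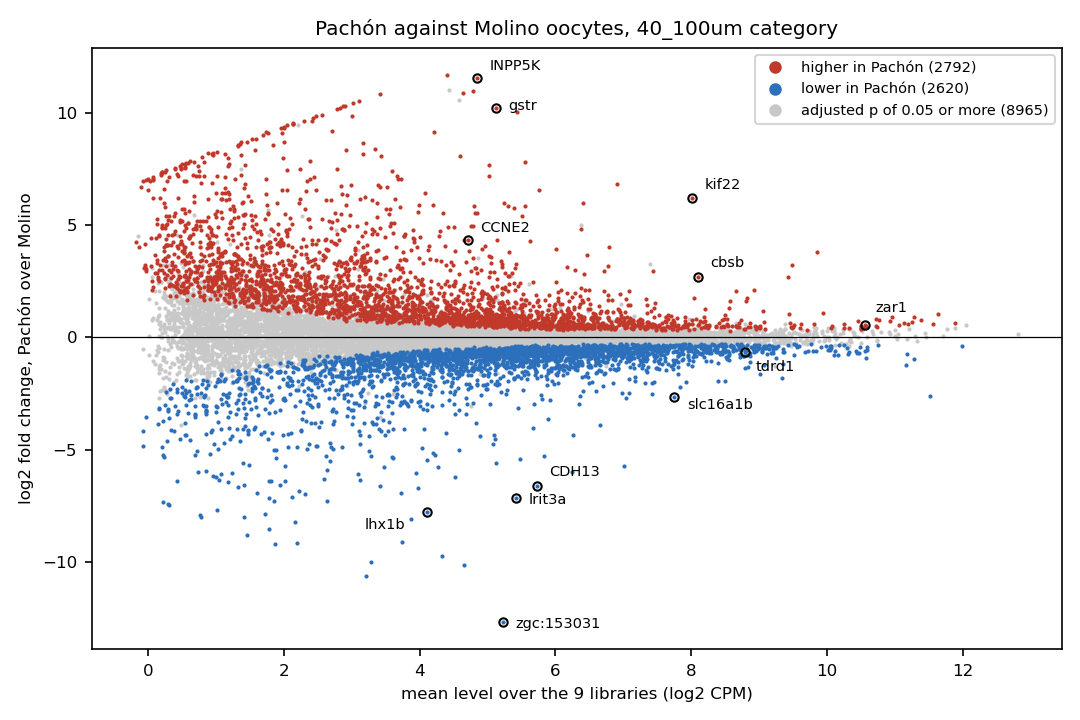
Each point is 1 of the 14377 tested genes, with its mean level over the 9 libraries of the 40_100um category (log2 CPM, x axis) and its log2 fold change of Pachón over Molino (y axis). Red points were higher in Pachón (2792) and blue points lower (2620) at an adjusted p under 0.05, grey points did not pass, and circles mark genes given in the text. The slanting row of red points at the upper left holds genes without Molino reads, whose fitted fold is set by the method and is no measured size.

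The genes with the largest folds among well expressed genes were near silent in Molino and plainly present in Pachón. INPP5K, a phosphatase of inositol phospholipids, was at 60.6, 48.2 and 43.9 CPM in Pachón, 0, 0 and 0 CPM in Molino and 40.1, 28.4 and 34.3 CPM in surface fish. With no read in Molino, it was at least 363-fold higher in Pachón (adjusted p = 2.59e-08), the bound being set with 3 counts over the Molino group. The glutathione S-transferase gene gstr, of an enzyme family that couples glutathione to reactive compounds, was at 90.8, 63.7 and 73.1 CPM in Pachón, 0.162, 0 and 0 CPM in Molino and 35.4, 20.9 and 26.8 CPM in surface fish. It had 1 Molino read, which puts the ratio of Pachón to Molino at 1629, with a 95% counting interval of 292 to 64372 (adjusted p = 8.88e-09). GUCY2C (ENSAMXG00000008839), a membrane guanylate cyclase known as the guanylin receptor of mammalian intestine, was at 23.9, 33 and 46.5 CPM in Pachón, without reads in Molino, and at 46.8 CPM on average in surface fish (at least 238-fold higher in Pachón, adjusted p = 9.73e-06). BNC1, a zinc finger factor that mouse oocytes also express, was at 21.4, 22.1 and 21 CPM in Pachón, had no Molino read and averaged 0.0422 CPM in surface fish (at least 151-fold, adjusted p = 9.5e-07). That all Pachón libraries stood above all Molino libraries was a condition for the choice of these 4 genes. Surface fish were near Pachón for INPP5K and GUCY2C but near Molino for BNC1.

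The other 8 genes of the 12 largest rises were of varied kinds. The protease gene ctsl.1 with the ID ENSAMXG00000037672, 1 of 16 genes that carry this cathepsin L symbol, was at 12.8, 22.6 and 12.6 CPM in Pachón with no Molino read (at least 109-fold higher, adjusted p = 2.93e-06). Reads of near-identical copies may be split between such genes, so its level is uncertain. The calsequestrin gene casq1a, whose protein stores calcium in muscle, was at 11, 11.6 and 11.5 CPM in Pachón without reads in Molino (at least 79.7-fold, adjusted p = 6.37e-06). Also without Molino reads were the photoreceptor nuclear receptor nr2e3 (at least 78.7-fold), the zinc finger factor glis3 (at least 81.4-fold), the keratin krt5 (at least 84.8-fold), the matrix protein EDIL3 (ENSAMXG00000043126, at least 85.5-fold) and zgc:100868 (at least 154-fold). Cfap161, a gene of a protein of cilia and flagella, was at 41.3, 37.1 and 31.8 CPM in Pachón, against 0.162, 0 and 0 CPM in Molino, a ratio of 780.3, with a 95% counting interval of 139.6 to 30859.5.

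Among the 12 largest falls of the same ranking, zgc:153031 had no Pachón read in this category while its Molino libraries were at 117, 124 and 94.2 CPM. It was at least 763-fold lower in Pachón (adjusted p = 8.34e-09) and averaged 0.0856 CPM in surface fish. The LIM homeodomain factor lhx1b was at 0.125, 0.168 and 0 CPM in Pachón, 25.6, 24.8 and 24.5 CPM in Molino and 24.7, 26.7 and 26 CPM in surface fish. With 2 Pachón reads, its ratio of Molino to Pachón was 258, with a 95% counting interval of 71.1 to 2136 (adjusted p = 1.6e-08), and surface fish were at the Molino level. The retinal synapse gene lrit3a was at 0.747, 0 and 0.74 CPM in Pachón, 77.8, 78.6 and 73.9 CPM in Molino and 55.9, 46.4 and 48.3 CPM in surface fish (log2 fold change -7.14, SE 0.34, adjusted p = 1.1e-08). CDH13, a cadherin without a cytoplasmic tail, was at 0.996, 0.168 and 0.74 CPM in Pachón, against 77.5, 70.4 and 57.1 CPM in Molino (log2 fold change -6.63, SE 0.50, adjusted p = 7.48e-06), and its surface mean was 88.2 CPM. The lack of overlap between the cave populations was a condition for the choice of these 4 genes.

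The remaining 8 falls again included genes best known from other tissues. Matrix proteoglycans were among them, biglycan (bgna, a ratio of Molino to Pachón of 139.6, with a 95% counting interval of 38.3 to 1158) and lubricin (prg4a, 192, with a 95% counting interval of 34 to 7609). The adjusted p of prg4a was 0.0222 and its call was lost without Pachón library 1, Pachón library 2 or Pachón library 3 (adjusted p = 0.075 to 0.104). RAB32, a small GTPase of melanosomes and related organelles, had no read in Pachón and 11.3, 10.2 and 7.7 CPM in Molino (at least 66.2-fold lower, adjusted p = 9.18e-06). The synaptic receptor gene il1rapl1b was at 0.125, 0 and 0 CPM in Pachón, against 35.1, 36.5 and 37.5 CPM in Molino (adjusted p = 0.000506). RBPJL, a transcription factor known from mammalian pancreas, fell by 6.72 on the log2 scale (mean 0.259 CPM in Pachón against 27.4 CPM in Molino) and gpm6aa, a neuronal membrane glycoprotein, by 6.64 (mean 0.272 CPM in Pachón against 30.3 CPM in Molino). The membrane protease gene st14b had 2 Pachón reads and a ratio of 183, with a 95% counting interval of 50.4 to 1519, and zgc:112294 had none and was at least 186-fold lower.

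**Figure D2:**
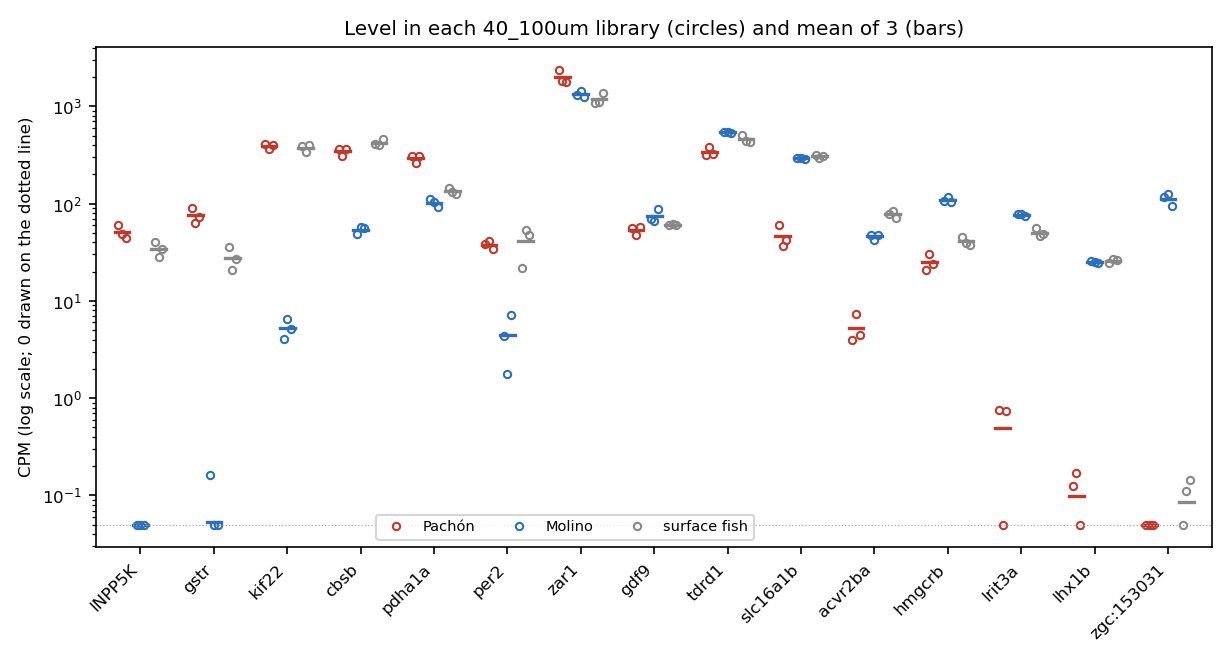
Level of 15 genes (x axis) in each library of the 40_100um category, in CPM on a log scale (y axis), with Pachón in red at the left, Molino in blue and surface fish in grey at the right of each gene. Circles are single libraries, bars the mean of 3, and a value of 0 is drawn on the dotted line at 0.05 CPM; no red circle lies within the range of the blue circles of its gene.

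The smallest p-value among the genes named here belonged to a motor protein and not to a silent gene. The kinesin gene kif22, whose protein binds chromosomes and moves them along the spindle, was at 414, 366 and 395 CPM in Pachón, 4.04, 6.57 and 5.09 CPM in Molino and 389.7, 338 and 401 CPM in surface fish. All 3 Pachón libraries were at the surface fish level and all 3 Molino libraries were far below (log2 fold change 6.22, SE 0.17, adjusted p = 9.05e-11). It was the one kinesin among the named genes that was higher in Pachón. Cyclin E2, CCNE2, a driver of entry into DNA synthesis that was chosen for the text after its values were seen, was at 65.3, 76.7 and 47.8 CPM in Pachón, against 3.56, 3.07 and 2.86 CPM in Molino (log2 fold change 4.32, SE 0.62, adjusted p = 0.000815).

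Genes at or near 0 in one population made up a small part of the calls and were more numerous for Molino than for Pachón. At most 3 reads over the 3 Molino libraries, with at least 3 CPM on average in Pachón, were found for 158 called genes (1.1% of those tested), 80 of them with a symbol and 68 without any Molino read. The reverse was found for 50 genes (0.348%), 28 with a symbol and 14 without a Pachón read. Among the named ones, the proton pump subunit gene atp6v0a1b was at 62.3, 15 and 14.1 CPM in Pachón, against 0.324, 0 and 0 CPM in Molino, where Pachón library 1 stood well above the other 2. Its ratio of Pachón to Molino was 348, with a 95% counting interval of 95.9 to 2879 (adjusted p = 0.000222). The clusterin-like gene clul1 was at 20.4, 28.8 and 13.6 CPM in Pachón, against 0.485, 0 and 0 CPM in Molino (adjusted p = 1.73e-05). Among genes near 0 in Pachón, the adenylate cyclase gene ADCY2 was at 0.249, 0 and 0 CPM in Pachón, against 15.7, 9.2 and 7.57 CPM in Molino (adjusted p = 6.84e-05) and ZPLD1 (ENSAMXG00000003369), which carries a domain of the egg coat proteins, at 0, 0 and 0.148 CPM in Pachón, against 18.6, 8.62 and 3.97 CPM in Molino (adjusted p = 0.000181). Surface fish had at most 3 reads for 33 of the 158 genes and 17 of the 50, and at least 3 CPM for 29 of the 158 and 14 of the 50.

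Genes were also read by 37 lists of pathways and cell types, 36 of which had tested members. Of their 1313 tested members 480 were called, a share near the 37.6% among all genes tested. The count was 356 to 446 with 1 library left out, 356 in the fit of all 36 libraries and 265 with the marker covariate. Counts are read beside the 19.4% higher and 18.2% lower among all genes tested. None of the 178 genes picked by the naming rule was seen to reverse under any alternative run for it. A covariate of macrophage markers, given below, was not among the alternatives run for single genes and lists. A change of direction was counted only where the gene passed in the fit of 9 libraries or in the alternative. Where leaving out 1 library, the fit of all 36 libraries (18259 genes tested, 2841 higher and 1668 lower) or the marker covariate (14377 tested, 1630 higher and 1752 lower) moved a list's count by more than 1.5 times, that count follows, a library being named by its population and number. Counts under other alternatives are given where they moved by more than 1.5 times and by at least 3 genes.

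**Figure D3:**
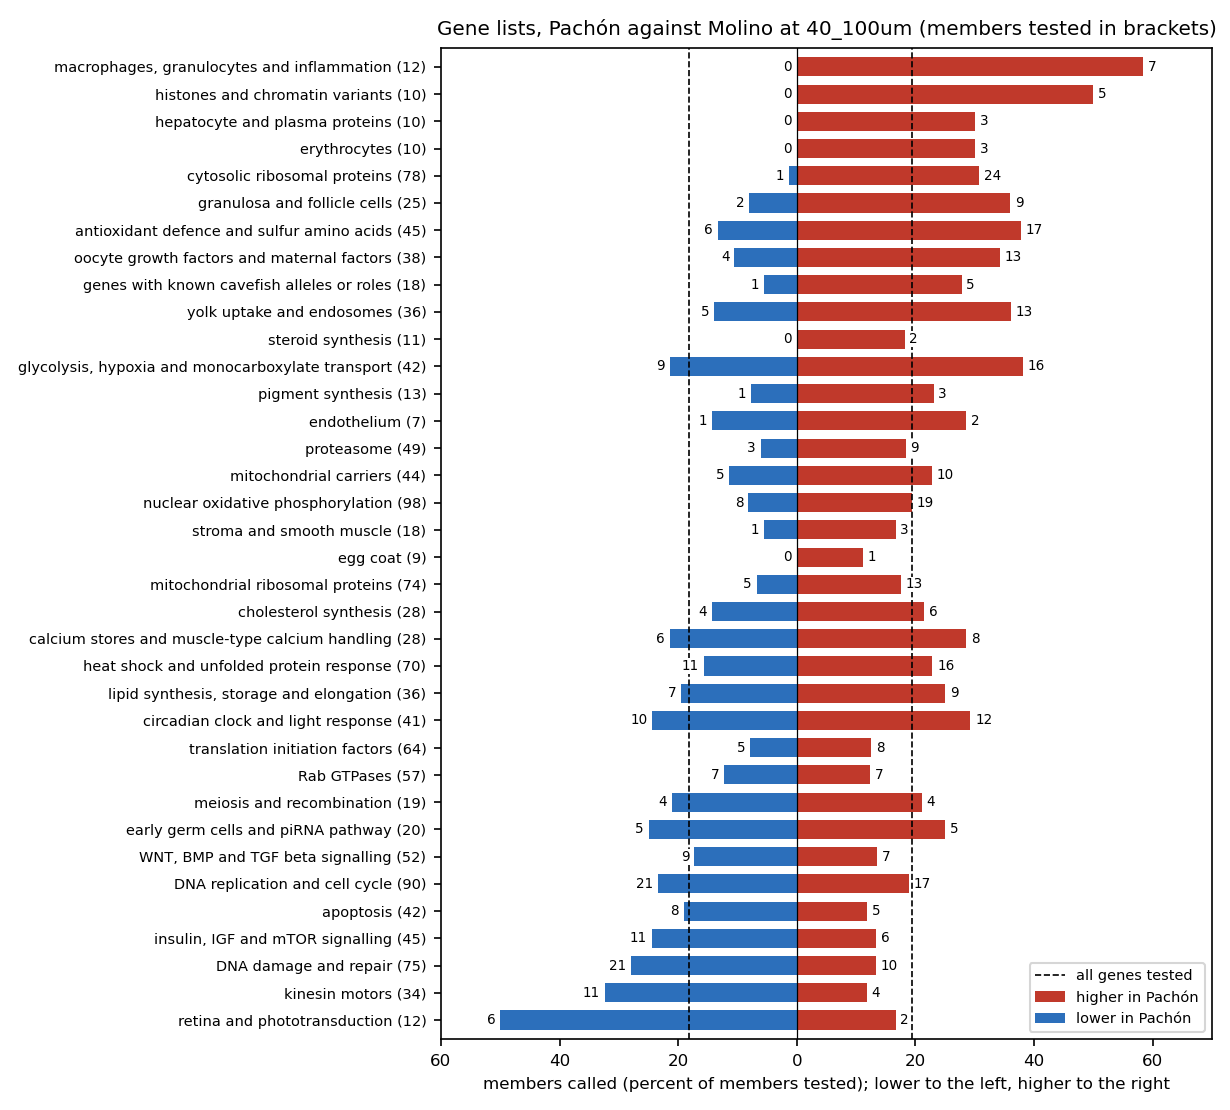
Share of tested members called higher (red, to the right) or lower (blue, to the left) in Pachón against Molino, in percent of the members tested (x axis), for 36 gene lists (y axis, number tested in brackets, number called beside each bar). Dashed lines mark 19.4% higher and 18.2% lower over all 14377 genes; the macrophage list reached furthest to the right with 7 of 12 and the retina list furthest to the left with 6 of 12.

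In the list of oocyte and maternal factors 13 of 38 tested genes were higher and 4 lower in Pachón (median log2 fold change 0.26). The nucleoplasmin gene npm2b, whose protein remodels chromatin in the egg, was at 751, 429 and 531 CPM in Pachón, against 262, 244 and 198 CPM in Molino (log2 fold change 1.28, SE 0.18, adjusted p = 0.00016). Its paralog npm2a was also higher (0.85, adjusted p = 0.00159), as was rbpms2b, an RNA-binding protein of the Balbiani body, at 1385, 1342 and 1099 CPM in Pachón, against 605, 669 and 562 CPM in Molino (log2 fold change 1.06, SE 0.13, adjusted p = 3.92e-05). Zar1 was higher by 0.57 (adjusted p = 0.00723). The oocyte growth factor gdf9 was at 55.9, 47.3 and 57.7 CPM in Pachón, against 70.04, 66.9 and 86.9 CPM in Molino (log2 fold change -0.48, SE 0.14, adjusted p = 0.0176), and its relative bmp15 at 61.8, 67.2 and 67.2 CPM in Pachón, against 92.2, 73.6 and 89.9 CPM in Molino did not pass (-0.38, adjusted p = 0.0521), but did without Molino library 2 (adjusted p = 0.0386). The call of gdf9 was lost without Pachón library 2 or Molino library 3 (adjusted p = 0.0613 to 0.0735). YBX2, which masks stored messenger RNA, was lower (-0.67, adjusted p = 0.00149). The oocyte list held 2 lower without Molino 3. Counts of the oocyte list were 4 higher and 0 lower in the fit of all 36 libraries (39 tested), and 4 higher and 3 lower with the marker covariate.

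Of 9 tested zona pellucida genes, which code for the egg coat, 1 was higher and none was lower (median log2 fold change 0.21). That gene, zp3e, averaged 1835 ± 207 CPM in Pachón and 1292 ± 128 CPM in Molino (SD, n = 3 each), a log2 fold change of 0.51, adjusted p = 0.0155. That call was lost without Molino library 1 or Molino library 3 (adjusted p = 0.0571 to 0.0615). The egg coat list held 0 higher without Molino 1 or Molino 3, and 1 lower without Pachón 2 or Molino 3. Counts of the egg coat list were 0 higher and 0 lower in the fit of all 36 libraries (9 tested), and 0 higher and 0 lower with the marker covariate. The germ cell transcription factor figla, which switches on egg coat genes, was at 8.97, 4.21 and 6.81 CPM in Pachón, against 4.53, 5.11 and 3.85 CPM in Molino and did not pass (0.58, adjusted p = 0.24). The populations overlapped for it.

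The piRNA pathway silences transposons in germ cells. In the list of early germ cell and piRNA genes 5 of 20 tested genes were higher and 5 lower in Pachón (median log2 fold change -0.03). Those shares were 25% each, beside 19.4% higher and 18.2% lower among all genes tested. The Tudor protein gene tdrd3 was at 114, 137 and 155 CPM in Pachón, against 60.7, 49.5 and 59.96 CPM in Molino (log2 fold change 1.25, SE 0.15, adjusted p = 2.65e-05), and the Piwi gene piwil1 at 188, 122 and 131 CPM in Pachón, against 64.9, 88.5 and 54.4 CPM in Molino (log2 fold change 1.08, SE 0.20, adjusted p = 0.000927). Its partner tdrd1, a Tudor scaffold protein, was lower at 314, 382 and 319.6 CPM in Pachón, against 547, 541 and 530.2 CPM in Molino (log2 fold change -0.67, SE 0.12, adjusted p = 0.00055), and tdrd15 was lower as well (-1.06, adjusted p = 0.00246). The germline helicase ddx4 did not pass (0.21, adjusted p = 0.15). The piRNA list held 2 lower without Pachón 3 or Molino 1. Counts of the piRNA list were 2 higher and 2 lower in the fit of all 36 libraries (20 tested), and 3 higher and 2 lower with the marker covariate.

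Of meiosis genes, 4 of 19 tested genes were higher and 4 lower in Pachón (median log2 fold change 0.20). Those shares, 21.1% each, were near the 19.4% higher and 18.2% lower among all genes tested. Spo11, whose enzyme cuts DNA to start recombination, was at 3.74, 5.73 and 3.7 CPM in Pachón, against 19.4, 12 and 13.3 CPM in Molino (log2 fold change -1.76, SE 0.33, adjusted p = 0.00113), and mei4, which is needed for those cuts in mouse, was lower as well (-0.82, adjusted p = 0.000445). MSH5, which stabilises crossovers, went the other way at 10.6, 7.41 and 6.95 CPM in Pachón, against 1.13, 0.292 and 1.99 CPM in Molino (log2 fold change 2.83, SE 0.61, adjusted p = 0.00278). The strand exchange gene dmc1 was hardly present, with 2 Pachón and 24 Molino reads (ratio of Molino to Pachón 11.8, with a 95% counting interval of 2.93 to 103, adjusted p = 0.0373). Its call was lost without Pachón library 1, Pachón library 2 or Molino library 3 (adjusted p = 0.0975 to 0.224). The synaptonemal complex gene sycp3 had 17 reads in Pachón and 9 in Molino and did not pass (adjusted p = 0.54). The meiosis list held 2 higher without Pachón 1, Pachón 3 or Molino 3, and 2 lower without Pachón 1, Pachón 2 or Molino 3. Counts of the meiosis list were 3 higher and 2 lower in the fit of all 36 libraries (23 tested), and 1 higher and 3 lower with the marker covariate.

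Genes of glycolysis and monocarboxylate transport held some of the clearest differences. In the list of glycolysis, hypoxia and monocarboxylate transport 16 of 42 tested genes were higher and 9 lower in Pachón (median log2 fold change 0.43). The transporter gene slc16a1b, which carries lactate and pyruvate across membranes, was at 60.3, 36.6 and 42.5 CPM in Pachón, 296, 294 and 289.5 CPM in Molino and 319, 294 and 305 CPM in surface fish. Molino was at the surface fish level and Pachón far below (log2 fold change -2.65, SE 0.16, adjusted p = 7.69e-08). Called glycolytic enzymes went both ways. Phosphoglycerate mutase pgam1a was at 48.7, 47.5 and 58.3 CPM in Pachón, against 202, 190.1 and 164 CPM in Molino (log2 fold change -1.85, SE 0.13, adjusted p = 2.92e-07), and hexokinase hk2 at 13, 11.8 and 14.1 CPM in Pachón, against 52.9, 49.4 and 62.7 CPM in Molino (log2 fold change -2.09, SE 0.18, adjusted p = 1.89e-06). The enzyme genes pklr and tpi1a, both chosen after their values were seen, were higher. Pklr, a pyruvate kinase, was at 39.6, 35.4 and 27.5 CPM in Pachón, against 1.46, 1.9 and 1.12 CPM in Molino (4.51, adjusted p = 5.29e-06). The triosephosphate isomerase tpi1a had 3 Molino reads and a ratio of Pachón to Molino of 79, with a 95% counting interval of 26.7 to 386 (adjusted p = 3.14e-05). The pyruvate dehydrogenase subunit gene pdha1a, at the entry of pyruvate into the mitochondrial cycle, was higher at 311, 258 and 309.8 CPM in Pachón, against 112, 103 and 91.6 CPM in Molino (log2 fold change 1.52, SE 0.13, adjusted p = 1.23e-06). EPAS1, the hypoxia-inducible factor 2 alpha, was higher at 36.2, 29 and 21.9 CPM in Pachón, against 0.971, 2.34 and 4.59 CPM in Molino (log2 fold change 3.42, SE 0.42, adjusted p = 5.17e-05), with a surface fish mean of 9.42 CPM. Leaving out 1 library gave 13 to 17 higher and 7 to 9 lower.

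Genes of antioxidant defence and of sulfur amino acids were more often higher than lower: 17 of 45 tested genes were higher and 6 lower in Pachón (median log2 fold change 0.40). Both paralogs of cystathionine beta-synthase, the enzyme that diverts homocysteine to cysteine, were higher in Pachón than in Molino. The paralog cbsa was at 184, 206 and 129 CPM in Pachón, 36.6, 46.3 and 37.5 CPM in Molino and 25.7, 66 and 46.4 CPM in surface fish (log2 fold change 2.11, SE 0.31, adjusted p = 0.000677), so Pachón stood above both other populations. The paralog cbsb was at 362, 306 and 365 CPM in Pachón, 48.5, 57.2 and 56 CPM in Molino and 408, 398 and 459.8 CPM in surface fish (log2 fold change 2.67, SE 0.13, adjusted p = 1.1e-08), so Molino stood below both. Cthl, of the next enzyme of the pathway, was at 48.3, 61 and 66.7 CPM in Pachón, against 5.34, 4.23 and 3.1 CPM in Molino (log2 fold change 3.81, SE 0.29, adjusted p = 9.08e-07). The thioredoxin reductase gene txnrd3 (ENSAMXG00000016210) was lower at 19.6, 34.5 and 25.9 CPM in Pachón, against 141, 135 and 147 CPM in Molino (log2 fold change -2.41, SE 0.18, adjusted p = 5.35e-07). With 1 library left out there were 12 to 15 higher and 4 to 6 lower. Counts of the antioxidant list were 13 higher and 3 lower in the fit of all 36 libraries (52 tested), and 11 higher and 4 lower with the marker covariate.

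Yolk uptake genes were more often higher than lower: 13 of 36 tested genes were higher and 5 lower in Pachón (median log2 fold change 0.16). Cathepsin genes, whose proteases split yolk proteins in fish oocytes, moved both ways. Ctsk was at 35.4, 30.5 and 24.7 CPM in Pachón, against 3.4, 1.61 and 1.24 CPM in Molino (log2 fold change 3.88, SE 0.33, adjusted p = 1.76e-06), while ctsla (ENSAMXG00000042927) was at 144, 138 and 145 CPM in Pachón, against 536, 604 and 504 CPM in Molino (log2 fold change -1.95, SE 0.12, adjusted p = 1.44e-07). The recycling GTPase rab11a was lower (-1.65, adjusted p = 1.78e-05). A second ctsl.1 gene (ENSAMXG00000040750), at 2.37, 3.03 and 2.51 CPM in Pachón, against 0.485, 0.146 and 1.12 CPM in Molino, lost its call without Molino library 1 or Molino library 2 (adjusted p = 0.0602 to 0.063). Counts with 1 library left out were 10 to 14 higher and 4 to 6 lower. Counts of the yolk uptake list were 12 higher and 3 lower in the fit of all 36 libraries (47 tested).

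Lipid and cholesterol genes were mixed. For lipid synthesis and storage, 9 of 36 tested genes were higher and 7 lower in Pachón (median log2 fold change 0.13). The triglyceride enzyme dgat1b was higher (0.93, adjusted p = 0.000166), and elovl5, which elongates polyunsaturated fatty acids, fitm2, a protein of lipid droplet formation, and acsl1b, which activates fatty acids, were lower (-1.19, adjusted p = 0.000515; -1.19, adjusted p = 0.000142; -0.96, adjusted p = 0.000105). For cholesterol synthesis, 6 of 28 tested genes were higher and 4 lower in Pachón (median log2 fold change -0.01). Its rate-limiting enzyme gene hmgcrb was at 20.7, 30.3 and 24 CPM in Pachón, 107, 118 and 104 CPM in Molino and 45.8, 39.6 and 37.3 CPM in surface fish (log2 fold change -2.14, SE 0.16, adjusted p = 6.72e-07). Soat2, which esterifies cholesterol for storage, was at 10.1, 10.3 and 7.84 CPM in Pachón with no Molino read (at least 66.1-fold higher, adjusted p = 3.13e-05). Acat2 was higher as well (1.33, adjusted p = 0.000138), and the sterol exporter abcg1 lower (-2.08, adjusted p = 0.00719). The lipid list held 5 higher without Pachón 1. Counts of the lipid list were 4 higher and 7 lower with the marker covariate. The cholesterol list held 3 higher without Pachón 1, Pachón 3 or Molino 2, and 2 lower without Pachón 1, Pachón 2, Molino 1 or Molino 2. Counts of the cholesterol list were 4 higher and 2 lower in the fit of all 36 libraries (33 tested), and 4 higher and 2 lower with the marker covariate.

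In the clock list, 12 of 41 tested genes were higher and 10 lower in Pachón (median log2 fold change -0.01). The light-induced period gene per2 was at 38, 41.4 and 34.2 CPM in Pachón, 4.37, 1.75 and 7.2 CPM in Molino and 21.6, 53 and 47.7 CPM in surface fish (log2 fold change 3.07, SE 0.45, adjusted p = 0.000597), with Molino alone at a low level. Per3, chosen after its values were seen, was at 49.3, 39.3 and 64.4 CPM in Pachón, against 8.57, 10.5 and 9.44 CPM in Molino (2.42, adjusted p = 0.004). Nfil3, a repressor of the clock output, and ddb2, a light-induced DNA repair gene of fish, were higher (1.72, adjusted p = 7.13e-05; 1.51, adjusted p = 1.68e-05). The kinase gene csnk1e (ENSAMXG00000008683), of a family that marks period proteins for decay, was lower at 2.86, 2.53 and 2.51 CPM in Pachón, against 16.8, 17.1 and 22.3 CPM in Molino (log2 fold change -2.82, SE 0.42, adjusted p = 0.000201). Parts of the activating and of the repressing arm of the clock, bmal1b and cry1a, were lower too (-1.04, adjusted p = 0.000665; -1.05, adjusted p = 0.00149), and both were chosen after their values were seen. Cry2 did not pass, at 12.2, 13 and 12.6 CPM in Pachón, against 11.8, 12.1 and 14 CPM in Molino (-0.01, adjusted p = 0.981). The part of the hour and light at collection in the differences of clock genes was not tested. With 1 library left out there were 8 to 11 higher and 7 to 8 lower. Counts of the clock list were 11 higher and 5 lower in the fit of all 36 libraries (50 tested), and 9 higher and 5 lower with the marker covariate.

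Genes known from the eye and from pigment were present in these oocytes at low levels for the most part. Of 57 retina and phototransduction genes in the table, 12 were tested and 8 called, 2 higher and 6 lower in Pachón (median log2 fold change -1.19). That median depended on the genes tested: it was 0.34 without a filter on low counts (48 tested) and -0.50 in the fit of all 36 libraries (18 tested). Lrit3b, the paralog of lrit3a, was also lower at 1.25, 2.02 and 0.444 CPM in Pachón, against 12.6, 15.6 and 10.4 CPM in Molino (log2 fold change -3.39, SE 0.44, adjusted p = 6.39e-05). The retinal guanylate cyclase gucy2d had 2 Pachón and 83 Molino reads (ratio of Molino to Pachón 40.8, with a 95% counting interval of 10.9 to 342, adjusted p = 0.000931). CNGA3 (ENSAMXG00000035630), a cone channel subunit, went the other way with 107 Pachón and 2 Molino reads (ratio of Pachón to Molino 54.4, with a 95% counting interval of 14.7 to 455, adjusted p = 0.000871). Rd3, which controls retinal guanylate cyclase, was at 16.4, 14.7 and 13.2 CPM in Pachón, against 10.2, 6.57 and 7.08 CPM in Molino (0.90, adjusted p = 0.0442). Its call was lost without Pachón library 1, Pachón library 2, Pachón library 3, Molino library 2 or Molino library 3 (adjusted p = 0.0766 to 0.146). The retina list held 1 higher without Pachón 1 or Pachón 3. Counts of the retina list were 1 higher and 5 lower with the marker covariate. The rod opsin gene rho had no Pachón read and 3 Molino reads, and the list's summed level was 323 to 557 CPM in Pachón and 423 to 515 CPM in Molino.

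For pigment synthesis, 3 of 13 tested genes were higher and 1 lower in Pachón (median log2 fold change -0.38). This median too changed sign, to 0.30 without a filter on low counts (22 tested) and 0.04 in the fit of all 36 libraries (14 tested). Oca2, whose alleles cause albinism in cavefish, was at 52.8, 36.6 and 34 CPM in Pachón, 21.2, 22.1 and 22.7 CPM in Molino and 53.8, 37.4 and 35.7 CPM in surface fish (log2 fold change 0.90, SE 0.21, adjusted p = 0.00433). MLANA, a melanosome protein, was at 11, 11 and 10.8 CPM in Pachón without Molino reads (at least 76.6-fold higher, adjusted p = 1.45e-05). The organelle biogenesis gene bloc1s2 was higher (1.67, adjusted p = 2.47e-05), and hps5 lower (-0.43, adjusted p = 0.034). The fall of hps5 was lost without Pachón library 2, Pachón library 3, Molino library 1 or Molino library 2 (adjusted p = 0.0726 to 0.101). The pigment list held 0 lower without Pachón 2, Pachón 3, Molino 1 or Molino 2, and 2 lower without Molino 3. Counts of the pigment list were 2 higher and 0 lower in the fit of all 36 libraries (14 tested), and 2 higher and 0 lower with the marker covariate. Of genes with known cavefish alleles or roles, 5 of 18 tested genes were higher and 1 lower in Pachón (median log2 fold change 0.27), and the insulin receptor gene insra was the lower one (-0.53, adjusted p = 0.0409; chosen after its values were seen). The cavefish gene list held 8 higher without Molino 3 and 0 lower without Pachón 2, Pachón 3, Molino 1 or Molino 3. Counts of the cavefish gene list were 7 higher and 0 lower in the fit of all 36 libraries (23 tested), and 4 higher and 0 lower with the marker covariate. They were 8 higher and 2 lower without a filter.

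For insulin and growth factor signalling, 6 of 45 tested genes were higher and 11 lower in Pachón (median log2 fold change -0.07). Without Molino library 3 the counts were 8 higher and 8 lower. The insulin receptor substrate gene IRS1 was at 5.11, 12.3 and 6.81 CPM in Pachón, against 26, 19.7 and 34.8 CPM in Molino (log2 fold change -1.75, SE 0.31, adjusted p = 0.00067). The kinase gene AKT1 (ENSAMXG00000009230) was lower (-1.83, adjusted p = 0.000344; mean 3.32 CPM in Pachón against 11.8 CPM in Molino), and so was tsc1b, part of the brake on mTOR (-1.28, adjusted p = 0.000108). The gonadal growth factor igf3 was at 15.8, 21.4 and 15.5 CPM in Pachón, against 0, 2.34 and 2.48 CPM in Molino (log2 fold change 3.40, SE 0.67, adjusted p = 0.00233), and the binding protein gene igfbp2b was higher (3.24, adjusted p = 0.000454). The insulin signalling list held 7 lower without Pachón 1. Counts of the insulin signalling list were 6 higher and 7 lower in the fit of all 36 libraries (51 tested), and 4 higher and 6 lower with the marker covariate.

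For signalling by WNT, BMP and TGF beta, 7 of 52 tested genes were higher and 9 lower in Pachón (median log2 fold change -0.01). Those shares, 13.5% and 17.3%, were below the 19.4% and 18.2% among all genes tested. The activin receptor gene acvr2ba was at 3.98, 7.24 and 4.44 CPM in Pachón, 47.9, 42.6 and 48 CPM in Molino and 79, 84.4 and 71 CPM in surface fish (log2 fold change -3.16, SE 0.21, adjusted p = 2e-07). The shared signal carrier smad4a and the BMP target id2b were lower (-0.84, adjusted p = 0.00017; -1.03, adjusted p = 0.000336), and the ligand bmp2b was higher at 4.48, 8.93 and 6.21 CPM in Pachón, against 0.809, 0 and 0.745 CPM in Molino (log2 fold change 3.60, SE 0.65, adjusted p = 0.000804). The signalling list held 4 higher without Pachón 2, Molino 1 or Molino 2, and 5 lower without Pachón 1. Counts of the signalling list were 9 higher and 5 lower in the fit of all 36 libraries (66 tested), and 3 higher and 6 lower with the marker covariate.

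For replication and cell cycle, 17 of 90 tested genes were higher and 21 lower in Pachón (median log2 fold change 0.08). The replicative helicase gene mcm5 was at 79.8, 144 and 124 CPM in Pachón, against 244, 244 and 247 CPM in Molino (log2 fold change -1.08, SE 0.17, adjusted p = 0.000413), and mcm9, a helicase of recombination repair, was lower (-1.08, adjusted p = 4.22e-05). The inhibitors of cyclin-dependent kinases cdkn1a and cdkn1bb were both higher (1.59, adjusted p = 0.000392; 1.24, adjusted p = 3.99e-05), the second at 199.6, 174 and 168 CPM in Pachón, against 81, 88.8 and 58.8 CPM in Molino. The spindle checkpoint gene KNTC1 was slightly lower (-0.50, adjusted p = 0.00694). For DNA damage and repair, 10 of 75 tested genes were higher and 21 lower in Pachón (median log2 fold change -0.08). RAD50, which holds broken DNA ends, was at 8.22, 13.6 and 7.54 CPM in Pachón, against 44.6, 48.5 and 49.9 CPM in Molino (log2 fold change -2.29, SE 0.30, adjusted p = 7.52e-05), and ercc8, a gene of transcription-coupled repair, was lower (-2.52, adjusted p = 6.15e-06). The mismatch repair gene pms1 was higher (1.41, adjusted p = 5.66e-06). Brca2 was lower (-0.96, adjusted p = 0.0207), a call that was lost without Pachón library 1, Pachón library 2, Molino library 1 or Molino library 3 (adjusted p = 0.0542 to 0.0892). The cell cycle list held 11 higher without Pachón 1 or Molino 2, and 10 higher without Molino 3. Counts of the cell cycle list were 6 higher and 9 lower in the fit of all 36 libraries (94 tested), and 10 higher and 18 lower with the marker covariate. The repair list held 6 higher without Pachón 2 or Molino 1. Counts of the repair list were 7 higher and 12 lower in the fit of all 36 libraries (77 tested), and 5 higher and 12 lower with the marker covariate.

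Of apoptosis genes, 5 of 42 tested genes were higher and 8 lower in Pachón (median log2 fold change -0.05). The inhibitor of apoptosis birc5a, also a chromosome passenger, was at 45.7, 49.4 and 53.4 CPM in Pachón, against 123, 116 and 84.9 CPM in Molino (log2 fold change -1.12, SE 0.24, adjusted p = 0.0034). Apaf1, the scaffold that activates caspases, bcl2l13 and pdcd4a were lower (-0.93, adjusted p = 0.00981; -0.77, adjusted p = 0.00131; -0.86, adjusted p = 0.000142). The apoptosis list held 0 higher without Pachón 1, 3 higher without Pachón 2 or Pachón 3, 2 higher without Molino 1 or Molino 2, and 1 higher without Molino 3. Counts of the apoptosis list were 7 higher and 5 lower in the fit of all 36 libraries (45 tested), and 2 higher and 4 lower with the marker covariate.

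In the list of histones and chromatin variants 5 of 10 tested genes were higher and 0 lower in Pachón (median log2 fold change 0.56). The variant histone gene macroh2a1, tied to silenced chromatin, was at 26, 22.4 and 20.4 CPM in Pachón, against 7.28, 10.2 and 8.07 CPM in Molino (log2 fold change 1.43, SE 0.23, adjusted p = 0.000314), and macroh2a2 was at 3.36, 6.4 and 2.07 CPM in Pachón, against 0.162, 0.292 and 0.372 CPM in Molino (3.72, adjusted p = 0.000672). The linker histone h1-10 was higher as well (2.08, adjusted p = 0.00433). With 1 library left out there were 4 to 6 higher and 0 lower.  Of kinesins, kif22 included, 4 of 34 tested genes were higher and 11 lower in Pachón (median log2 fold change -0.14). The vesicle motor gene KIF5B (ENSAMXG00000005869) was at 215, 273 and 297 CPM in Pachón, against 523, 515 and 571 CPM in Molino (log2 fold change -1.04, SE 0.13, adjusted p = 5.77e-05). KIF13B (ENSAMXG00000018489) and kifap3b, which links a kinesin to its cargo, were lower (-1.08, adjusted p = 3.48e-05; -2.97, adjusted p = 7.52e-07). The kinesin list held 2 higher without Pachón 3. Counts of the kinesin list were 3 higher and 4 lower in the fit of all 36 libraries (37 tested), and 2 higher and 7 lower with the marker covariate.

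Ribosomal protein genes were more often higher than lower in Pachón. Of 78 tested cytosolic ribosomal protein genes 24 were higher and 1 lower (median log2 fold change 0.47). Rpl22 was at 280.2, 194 and 184 CPM in Pachón, against 86.1, 89.4 and 66.5 CPM in Molino (log2 fold change 1.45, SE 0.18, adjusted p = 5.17e-05), and rpl12, rps19 and rps16 were higher by 1.18, 0.93 and 0.91 (adjusted p = 0.00342, 0.000829 and 0.00105). The median was 0.45 to 0.48 under the other scalings and 0.25 without Pachón library 1. The ribosomal protein list held 10 higher without Pachón 1, 11 higher without Molino 1, 12 higher without Molino 3, and 3 lower without Molino 3. Counts of the ribosomal protein list were 36 higher and 0 lower in the fit of all 36 libraries (80 tested), and 4 higher and 0 lower with the marker covariate. They were 38 higher and 1 lower with library totals, 37 higher and 1 lower with DESeq2's Wald test, and 37 higher and 1 lower with the 6 libraries alone. Ribosomal proteins have many near-identical copies, so single members are uncertain. For translation initiation factors, 8 of 64 tested genes were higher and 5 lower in Pachón (median log2 fold change 0.07), among them eif3d at 576, 426 and 433 CPM in Pachón, against 259, 279 and 274 CPM in Molino (log2 fold change 0.82, SE 0.13, adjusted p = 0.000254), and eif6 and eif3g (0.81, adjusted p = 0.000866; 0.73, adjusted p = 0.00289). The initiation factor list held 4 higher without Pachón 1, Molino 1 or Molino 3, 5 higher without Molino 2, and 3 lower without Pachón 1, Pachón 3, Molino 1 or Molino 2. Counts of the initiation factor list were 7 higher and 2 lower in the fit of all 36 libraries (65 tested), and 4 higher and 3 lower with the marker covariate.

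Of mitochondrial ribosomal proteins, 13 of 74 tested genes were higher and 5 lower in Pachón (median log2 fold change 0.18). Mrpl42 was at 138, 148 and 112 CPM in Pachón, against 37, 40.5 and 37.7 CPM in Molino (log2 fold change 1.79, SE 0.17, adjusted p = 5.21e-06), mrps34 was higher (1.52, adjusted p = 1.32e-05) and mrps28 lower (-0.73, adjusted p = 0.00189). Of nuclear genes of oxidative phosphorylation, 19 of 98 tested genes were higher and 8 lower in Pachón (median log2 fold change 0.23). The assembly factor ndufaf2 was at 9.09, 4.04 and 5.92 CPM in Pachón, against 0.324, 0.584 and 0.124 CPM in Molino (log2 fold change 4.18, SE 0.62, adjusted p = 0.000195), and the complex I subunit ndufs8a was lower (-1.31, adjusted p = 0.00134). Of mitochondrial carriers, 10 of 44 tested genes were higher and 5 lower in Pachón (median log2 fold change -0.16). The shares called in either direction were, in this order, 24.3%, 27.6% and 34.1%, below the 37.6% of all genes tested. Slc25a39, which brings glutathione into mitochondria, was at 5.73, 9.77 and 9.17 CPM in Pachón, against 41.6, 40.6 and 45.7 CPM in Molino (log2 fold change -2.38, SE 0.24, adjusted p = 6.91e-06), and slc25a44b, a carrier of branched-chain amino acids, was higher (1.21, adjusted p = 1.74e-05). The mitochondrial ribosomal proteins list held 3 lower without Pachón 1 or Pachón 3, and 2 lower without Molino 1 or Molino 2. Counts of the mitochondrial ribosomal proteins list were 10 higher and 1 lower in the fit of all 36 libraries (74 tested), and 7 higher and 2 lower with the marker covariate. The nuclear oxidative phosphorylation list held 11 higher without Pachón 1, 12 higher without Molino 3, and 5 lower without Molino 1 or Molino 2. Counts of the nuclear oxidative phosphorylation list were 9 higher and 4 lower with the marker covariate. The carrier list held 6 higher without Molino 1 and 3 lower without Molino 1 or Molino 3. Counts of the carrier list were 9 higher and 2 lower in the fit of all 36 libraries (46 tested), and 5 higher and 3 lower with the marker covariate.

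Protein quality control and calcium stores were mixed. Of heat shock and unfolded protein response genes, 16 of 70 tested genes were higher and 11 lower in Pachón (median log2 fold change 0.05). Manf, an endoplasmic reticulum stress factor, was at 87.2, 107 and 96 CPM in Pachón, 32.8, 31.3 and 27.9 CPM in Molino and 15.2, 11.7 and 13.9 CPM in surface fish (log2 fold change 1.66, SE 0.15, adjusted p = 3.87e-06), and creld2, induced with it in mammals, was higher (1.41, adjusted p = 0.000234). The collagen chaperone serpinh1a was at 26.9, 22.1 and 29 CPM in Pachón, against 0.647, 0 and 1.49 CPM in Molino (log2 fold change 5.09, SE 0.52, adjusted p = 1.22e-05). The disulfide isomerase PDIA6 was lower at 32.8, 39.8 and 51.2 CPM in Pachón, against 113, 113 and 111 CPM in Molino (log2 fold change -1.45, SE 0.16, adjusted p = 1.79e-05). Of proteasome genes, 9 of 49 tested genes were higher and 3 lower in Pachón (median log2 fold change 0.09), among them PSMD13, higher (1.07, adjusted p = 0.00118). Counts of the proteasome list were 4 higher and 3 lower in the fit of all 36 libraries (56 tested), and 4 higher and 2 lower with the marker covariate. Of calcium genes, 8 of 28 tested genes were higher and 6 lower in Pachón (median log2 fold change 0.03). The calcium pump gene ATP2A1 (ENSAMXG00000010004) was at 85.5, 59.8 and 62.4 CPM in Pachón, against 18.1, 19.3 and 21.5 CPM in Molino (log2 fold change 1.82, SE 0.17, adjusted p = 4.72e-06), and the channel gene cacna1c was lower at 0.374, 1.35 and 0.74 CPM in Pachón, against 23.8, 29.1 and 28.2 CPM in Molino (log2 fold change -5.07, SE 0.42, adjusted p = 1.32e-06). The chaperone hsp90aa1.2 did not pass at 10.3, 4.38 and 2.96 CPM in Pachón, against 17.1, 12.6 and 13.7 CPM in Molino (-1.28, adjusted p = 0.0515). It did without Pachón library 1 (adjusted p = 0.0123). The heat shock list held 10 higher without Pachón 1, 9 higher without Molino 1, and 7 lower without Molino 1, Molino 2 or Molino 3. Counts of the heat shock list were 14 higher and 3 lower in the fit of all 36 libraries (73 tested), and 6 higher and 6 lower with the marker covariate. The calcium list held 2 lower without Pachón 3. Counts of the calcium list were 9 higher and 2 lower in the fit of all 36 libraries (35 tested), and 6 higher and 2 lower with the marker covariate.

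Of Rab GTPases, 7 of 57 tested genes were higher and 7 lower in Pachón (median log2 fold change 0.22), with RAB19 (ENSAMXG00000039737) at 5.23, 7.08 and 2.07 CPM in Pachón, against 0.162, 0 and 0.372 CPM in Molino (4.56, adjusted p = 0.00158) and RAB10 higher (0.62, adjusted p = 0.00223). The Rab genes RAB32 and rab11a, given above, were lower. The Rab list held 4 higher without Pachón 1 or Molino 3, and 4 lower without Pachón 1, Pachón 2 or Molino 1. Counts of the Rab list were 8 higher and 4 lower in the fit of all 36 libraries (69 tested), and 5 higher and 3 lower with the marker covariate.

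More follicle and immune cell genes were called higher than lower in Pachón. Of granulosa and follicle cell genes, 9 of 25 tested genes were higher and 2 lower in Pachón (median log2 fold change 1.37), and the list's summed level was 479 to 603 CPM in Pachón and 285 to 446 CPM in Molino. Fshr was at 2.62, 3.54 and 2.96 CPM in Pachón, against 0, 0 and 0.621 CPM in Molino (log2 fold change 3.63, SE 0.95, adjusted p = 0.00895). The estrogen enzyme hsd17b1 and the factors sall1a and nr5a2 were higher (3.32, adjusted p = 0.0103; 3.19, adjusted p = 0.00407; 1.38, adjusted p = 0.00461), and the gap junction gene gja1b lower (-1.89, adjusted p = 0.00321). The aromatase cyp19a1a did not pass at 2.24, 2.86 and 3.7 CPM in Pachón, against 0.324, 0.584 and 3.23 CPM in Molino (1.03, adjusted p = 0.374). The granulosa list held 14 higher without Molino 3. Counts of the granulosa list were 3 higher and 1 lower with the marker covariate. Of macrophage, granulocyte and inflammation genes, 7 of 12 tested genes were higher and 0 lower in Pachón (median log2 fold change 2.00), and the list's sum was 139 to 190 CPM in Pachón and 42.8 to 53.9 CPM in Molino. Of the 12 log2 fold changes, 9 were positive and 3 negative, and 19 of the 31 list genes in the table were not tested. The immune genes c1qc, c1qa, mpx and ptprc had few reads in both populations, as given above. Whether the list reflects the number of such cells was not tested. The actin-binding gene coro1a was at 51.9, 62.2 and 40.8 CPM in Pachón, against 0.485, 1.31 and 0.745 CPM in Molino (log2 fold change 5.89, SE 0.51, adjusted p = 5.62e-06), and the DNA sensor adaptor sting1 at 28.1, 31.7 and 16 CPM in Pachón, against 0.809, 0 and 0.248 CPM in Molino (log2 fold change 6.16, SE 0.61, adjusted p = 7.64e-06). The antigen presentation gene cd74a and grna, the progranulin gene, were higher (2.73, adjusted p = 0.00051; 1.86, adjusted p = 0.00603). Counts of the macrophage list were 3 higher and 0 lower with the marker covariate. With 1 library left out there were 6 to 7 higher and 0 lower. With the log2 sum of these macrophage markers as a covariate instead, 85 genes of the whole table were called, 48 higher and 37 lower. The sums did not overlap between the populations, so their level and the population cannot be told apart.

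Other tissue lists had few tested members. Summed levels were 254 to 358 CPM in Pachón and 354 to 565 CPM in Molino for stroma, 40.1 to 82.7 CPM in Pachón and 21.4 to 54.3 CPM in Molino for endothelium, and 136 to 157 CPM in Pachón and 123 to 147 CPM in Molino for erythrocytes. Of steroid synthesis genes, 2 of 11 tested genes were higher and 0 lower in Pachón (median log2 fold change 0.64), with the cholesterol carrier stard3 at 21.2, 24.1 and 20.6 CPM in Pachón, against 6.63, 5.7 and 7.57 CPM in Molino (1.72, adjusted p = 0.000471). In the stroma and smooth muscle list, 3 of 18 tested genes were higher and 1 lower in Pachón (median log2 fold change 0.69), among them col1a1a at 32.9, 24.1 and 39.4 CPM in Pachón, against 5.5, 15.2 and 21 CPM in Molino (adjusted p = 0.0257, a call lost without Pachón library 1, Pachón library 3 or Molino library 2 at adjusted p = 0.0595 to 0.0789) and fibronectin fn1a, lower (-1.07, adjusted p = 0.00124). Of endothelial genes, 2 of 7 tested genes were higher and 1 lower in Pachón (median log2 fold change 1.37), of erythrocyte genes, 3 of 10 tested genes were higher and 0 lower in Pachón (median log2 fold change 0.91), and of hepatocyte and plasma protein genes, 3 of 10 tested genes were higher and 0 lower in Pachón (median log2 fold change 0.85). The last median was 0.70 with the gene that had no reads in one group set at its bound, and -0.03 in the fit of all 36 libraries, and the plasma protein sum was 82.8 to 100.2 CPM in Pachón and 41.6 to 45.6 CPM in Molino. The spectrin gene sptb was at 25.4, 20.9 and 26.9 CPM in Pachón, against 1.29, 1.75 and 3.1 CPM in Molino (log2 fold change 3.54, SE 0.64, adjusted p = 0.0017). No lymphocyte gene passed the filter on low counts, and the sum of that list was 4.04 to 38.6 CPM in Pachón and 2.103 to 2.92 CPM in Molino. The steroid synthesis list held 4 higher without Molino 3. Counts of the steroid synthesis list were 1 higher and 0 lower with the marker covariate. The stroma list held 1 higher without Pachón 1, Pachón 3, Molino 1 or Molino 2, and 10 higher without Molino 3. Counts of the stroma list were 0 higher and 1 lower with the marker covariate. The endothelium list held 1 higher without Pachón 1, Pachón 3, Molino 1 or Molino 2, 4 higher without Molino 3, and 0 lower without Pachón 1, Pachón 3, Molino 2 or Molino 3. Counts of the endothelium list were 3 higher and 0 lower in the fit of all 36 libraries (18 tested), and 0 higher and 0 lower with the marker covariate. Counts of the erythrocyte list were 1 higher and 0 lower with the marker covariate. The plasma protein list held 1 higher without Pachón 1, Pachón 3 or Molino 2, 0 higher without Molino 1 or Molino 3, and 1 lower without Pachón 1. Counts of the plasma protein list were 0 higher and 0 lower in the fit of all 36 libraries (19 tested), and 1 higher and 0 lower with the marker covariate.

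The same populations were compared in the other size categories, in libraries that share none with 40_100um. At 100_300um, 3874 of 15494 genes differed (25%), 2087 higher (13.5%) and 1787 lower (11.5%) in Pachón, and at 300um 5247 of 15214 (34.5%), 2821 higher (18.5%) and 2426 lower (15.9%). Those counts were 2310 without Molino library 2 and 2508 without Molino library 1 of 100_300um, and 3413 without Molino library 2 of 300um. Called in the same direction at 40_100um and 100_300um were 2645 genes, 48.9% of the first list and 68.3% of the second, and 8 were called in opposite directions. The lists of 40_100um and 300um shared 3113 genes in direction, 57.5% of the first and 59.3% of the second, and 27 were opposite. In all, 2304 genes were called in the same direction at all 3 sizes. Of the 24 genes named for the largest folds among those ranked, 23 were called in the same direction at both larger sizes, the exception being prg4a at 300um (-7.18, adjusted p = 0.0559). Kif22 was higher at 100_300um (5.43, adjusted p = 1.09e-08) and 300um (5.07, adjusted p = 2.54e-07), and slc16a1b lower (-2.61, adjusted p = 1e-05; -2.49, adjusted p = 3.11e-06). At 40um, 506 of 15917 genes (3.18%) differed, 298 higher (1.87%) and 208 lower (1.31%). Of these, 263 were called in the same direction at 40_100um, 52.0% of the 40um list and 4.86% of the other. The cause of the smaller count at 40um was not tested.

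Some genes called at 40_100um did not pass at the larger sizes. On the log2 scale, the difference of Pachón from Molino for fshr was 0.25, adjusted p = 0.705 at 100_300um and -0.45, adjusted p = 0.321 at 300um. Tdrd1 was -0.22, adjusted p = 0.198 at 100_300um and -0.09, adjusted p = 0.507 at 300um, and mcm5 was -0.21, adjusted p = 0.27 and -0.19, adjusted p = 0.303 at these sizes. A call at one size and none at another does not show a difference between the sizes, so that difference was tested itself. Fshr, tdrd1 and mcm5 were not among the named genes that passed that test.

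The difference between Pachón and Molino at 40_100um was set against that at 100_300um in a fit of 18 libraries. Of 15946 genes 170 passed (1.07%), 42 with a more positive (0.263%) and 128 with a more negative difference (0.803%) at 40_100um, and 152 of the 170 were also called at 40_100um. That number depended on single libraries and on scaling: it was 224 without Pachón library 2 of 40_100um, 163 without Molino library 3 of 100_300um and 9 to 80 without any other one of the 12 libraries. It was 86 with DESeq2's size factors, 10 with library totals and 572 with DESeq2's Wald test. The 6 genes named for it by their small p-values passed in each of the 12 fits with 1 library left out. SLC7A1 (ENSAMXG00000009846), a transporter of cationic amino acids, was at 69.5, 92.8 and 88.8 CPM in Pachón, against 145, 153 and 135 CPM in Molino in the 40_100um category (log2 fold change -0.79, SE 0.13, adjusted p = 0.000467), and higher in Pachón at 100_300um (0.38, adjusted p = 0.0182). The difference of those differences was -1.17, SE 0.15, adjusted p = 0.00367 on the log2 scale. Iqgap3, a scaffold protein of the cytoskeleton, also turned, at 207, 256 and 233 CPM in Pachón, against 343, 364 and 354 CPM in Molino in the 40_100um category (-0.61, adjusted p = 0.00115) and higher in Pachón at 100_300um (0.35, adjusted p = 0.0358; difference -0.96, SE 0.14, adjusted p = 0.00456).

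The other 4 were lower in Pachón at both sizes, and more so at 40_100um. Tbl1xr1b, a part of nuclear receptor corepressor complexes, was at 97, 102 and 106 CPM in Pachón, against 257, 272 and 249 CPM in Molino (log2 fold change -1.35, SE 0.11, adjusted p = 1.31e-06) and differed by -0.37, adjusted p = 0.0134 at 100_300um (difference -0.99, SE 0.13, adjusted p = 0.00367). ZRANB3, a DNA translocase that restarts stalled replication forks, was at 40.1, 48 and 45.3 CPM in Pachón, against 154, 146 and 136 CPM in Molino (log2 fold change -1.71, SE 0.12, adjusted p = 4.2e-07), with a difference between sizes of -1.06, SE 0.15, adjusted p = 0.00371. The polarity kinase MARK2 was at 20.7, 22.7 and 19.5 CPM in Pachón, against 63.2, 62.5 and 74 CPM in Molino (log2 fold change -1.67, SE 0.14, adjusted p = 1.81e-06), with -1.18, SE 0.17, adjusted p = 0.00371. For pgam1a the difference between sizes was -1.06, SE 0.15, adjusted p = 0.00371. In each of the 6 genes the Molino mean lay above the Pachón mean at 40_100um, with no overlap of libraries. A call at 40_100um was a condition for the choice of these 6 genes, so that separation adds little.

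**Figure D4:**
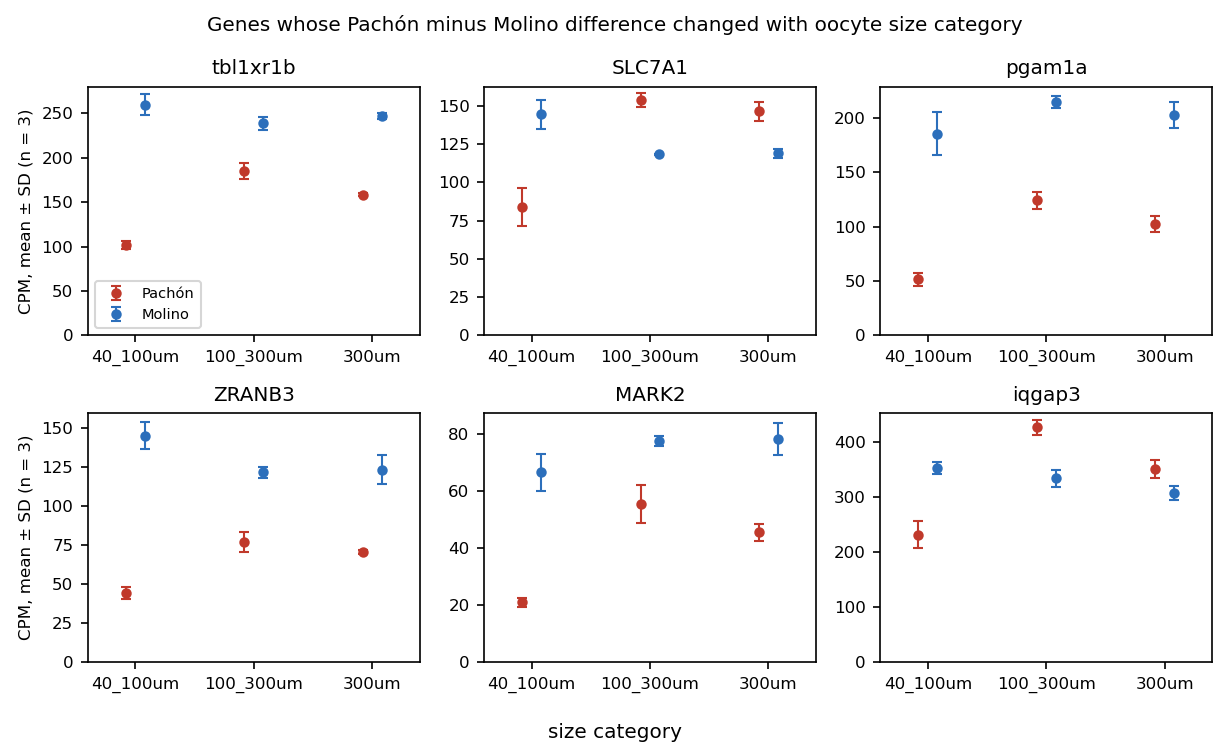
Mean level in CPM (y axis, from 0) with its SD over 3 libraries, for Pachón (red, left) and Molino (blue, right) in the 40_100um, 100_300um and 300um categories (x axis), for 6 genes whose difference between the populations was not the same at 40_100um and 100_300um. Pachón lies below Molino at 40_100um in all 6 panels and above it at the larger sizes for SLC7A1 and iqgap3.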

How the data were processed

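The submitters deposited one table of raw read counts per gene for the 36 libraries, so each value is a count made by the authors, not normalised. STAR 2.7.10b and RSEM are named per the submitters' processing notes. Their roles, the genome build and the handling of strand are not given in the sources used here. Rows of unassigned reads (multimapping, unmapped, no feature, ambiguous), 9.41% multimapping on average in Pachón and 7.25% in Molino, stayed out of library sizes and tests. No column of another sample was present. A deposited table of normalised values of the same libraries was not used.

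The 9 libraries of the 40_100um category were fitted with edgeR 4.0.16 (limma 3.58.1, R 4.3.3): TMM scaling, filterByExpr (minimum count 10, minimum total 15), a robust quasi-likelihood fit, and Benjamini-Hochberg adjustment over all 14377 genes tested, with 0.05 as threshold. CPM are counts scaled to the TMM-adjusted library size. The SE of a log2 fold change was derived from its test statistic. Scripts were tested on simulated data. The other size categories were fitted in the same way, and the difference between sizes as an interaction over 18 libraries. A gene without reads in a group was given 3 counts over that group, which makes its fold a bound. Genes with 1 to 3 reads have a ratio with an exact 95% counting interval. Such intervals cover counting error only, since PCR copies are not independent molecules. Depth was 5951789 to 8720879 reads in genes.

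Named were the 12 largest folds in each direction among called genes that had a symbol, averaged at least 2 on the log2 CPM scale and did not overlap between the populations. The 8 highest genes in each direction with at most 3 reads in one population, up to 4 called genes of each list by adjusted p, fixed anchor genes and the 6 smallest interaction p-values completed the 178 named genes, some of which the text leaves out. The libraries compared and the gene lists were chosen with earlier results of these data known. Alternatives were DESeq2 1.42.0 (size factors, Wald test), library totals, no filter, a replicate block, no 50 most abundant genes, one fit of 36 libraries, the 6 libraries alone, and each library left out. Marker covariates were added after seeing the data.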

Additional observations from a re-analysis of the deposited data

Results flagged for a closer look

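For 12 of the named genes the difference between Pachón and Molino at 40_100um itself differed from that at 100_300um (edgeR's quasi-likelihood interaction test, adjusted p under 0.05). Over all genes tested, 170 of 15946 passed (1.07%). A small p-value in this same test was a ground for naming the first 6 below, so the count of 12 is partly set by the choice. Values are log2 differences between the sizes, and a negative one means that Pachón stood lower, relative to Molino, at 40_100um than at 100_300um.

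In SLC7A1 the value was -1.17 (adjusted p = 0.00367), as the difference was -0.79 at 40_100um and 0.38 at 100_300um. In tbl1xr1b it was -0.99 (adjusted p = 0.00367), in ZRANB3 -1.06 (adjusted p = 0.00371), in MARK2 -1.18 (adjusted p = 0.00371) and in pgam1a -1.06 (adjusted p = 0.00371). In iqgap3 it was -0.96 (adjusted p = 0.00456), with -0.61 at 40_100um and 0.35 at 100_300um. These 6 genes passed in each of the 12 fits that left out 1 library, with an adjusted p of at most 0.0265.

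The other 6 kept the sign of their value when 1 library was left out, but not their call in every such fit, and none of them passed with library totals (adjusted p = 0.0671 to 0.152), where the 6 genes above did. KIF13B had -1.07 (adjusted p = 0.0159) and passed in 8 of 12 such fits. The cholesterol enzyme gene hmgcrb had -1.08 (adjusted p = 0.0272) and passed in 5 of 12. The GTPase gene rab11a had -1.03 (adjusted p = 0.0322) and passed in 4 of 12. Positive values were found for the complex I subunit ndufs4 (ENSAMXG00000019660), at 1.62 (adjusted p = 0.047, 3 of 12 fits), and for the cholesterol carrier stard3, at 1.42 (adjusted p = 0.0471, 0 of 12 fits). PDIA6 had -0.90 (adjusted p = 0.0471) and passed in 1 of 12.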

How the results depend on the processing

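No call of the 40_100um comparison changed direction and stayed called under any alternative run. Of the 5412 calls, 83 were made again with the macrophage markers as covariate, and between 3299 and 5379 under the other alternatives. Scaling by DESeq2's size factors gave 5420 calls, library totals 5329, no filter 5779, DESeq2's Wald test 5568, the 50 most abundant genes left out 5383 and the 6 libraries alone 5564. With 1 library left out there were 4382 to 4982. One fit of all 36 libraries gave 1668 lower genes, and 63.0% of its calls were higher, against 51.6%. Its median log2 fold change over all genes was 0.17, and 0.11 without a filter, against 0.03. With the summed markers of other cells as covariate 3382 genes were called, 1630 of them higher, and 265 of the list genes. With the macrophage markers 85 genes in all were called, 48 higher and 37 lower. The cause of these differences was not tested.

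At 100_300um, leaving out 1 library gave 2310 to 3722 calls, 1261 to 1960 higher and 1049 to 1762 lower. At 300um it gave 3413 to 4408, of which 1773 to 2383 were higher. The count of genes that differed between sizes depended most on the processing. It was 86 with DESeq2's size factors (20 more positive, 66 more negative), 10 with library totals (2 and 8) and 572 with DESeq2's Wald test (164 and 408). Without a filter 25 were more positive. With 1 library left out it was 9 to 224, of which 1 to 54 were more positive and 8 to 170 more negative.

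With the replicate number as a block 5497 genes were called at 40_100um, 5205 of them calls of the fit without it, and 224 genes differed between the sizes. Same-numbered libraries correlated at 0.0825, 0.0413 and 0.131. Each Pachón library correlated best with the Molino library of its number, while Molino library 2 correlated best with Pachón library 1 (0.0759). Whether libraries of the same number belong together was not tested. Of 2665 values of the 178 named genes under alternatives other than the macrophage covariate, 2537 kept their side of the threshold. Another 118 in 36 genes no longer passed, 10 in 2 genes passed newly and 0 reversed. A change of sign counted as a reversal only where the gene passed in the fit of 9 libraries or in the alternative. With 3 libraries a side, a depth of 5951789 to 8720879 reads limits mainly the genes of few reads.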

Other observations

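Some genes at 0 in one population stayed there in all 12 libraries of that population over the 4 size categories. Of the 158 genes near silent in Molino at 40_100um, 12 had no read in any Molino library, among them ctsl.1 (ENSAMXG00000037672), nr2e3, zgc:194655 and vgll4l, and 37 had at most 3 reads in each size category. Nr2e3 averaged 3.6 CPM at 40um, 11 CPM at 40_100um, 6.95 CPM at 100_300um and 9.02 CPM at 300um in Pachón, and 0.368 CPM in surface fish at 40_100um. Of the 50 genes near silent in Pachón, 21 had at most 3 reads in each category and 1, RAB32, had none in any Pachón library, against 7.34 to 9.75 CPM in Molino at the 3 larger sizes.

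The hypoxia factor gene EPAS1 averaged 26 CPM in Pachón and 32.1 CPM in Molino at 40um (log2 fold change -0.30, adjusted p = 0.805), where it was higher in Pachón at 40_100um. That difference between the sizes was not tested. Kif22 was higher in Pachón at 40um too, at 155 ± 100.3 CPM in Pachón and 4.91 ± 0.33 CPM in Molino (SD, n = 3 each; log2 fold change 4.98, adjusted p = 0.0117, edgeR). The semialdehyde dehydrogenase gene aldh5a1, chosen after its values were seen, was lower at 40_100um (21.9 CPM in Pachón and 34.7 CPM in Molino, log2 fold change -0.66, adjusted p = 0.0206) and higher at 100_300um (69.04 CPM in Pachón and 42 CPM in Molino, log2 fold change 0.72, adjusted p = 0.00667).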
